A study of Mus musculus with 15 samples.

Results

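Mouse embryonic stem (ES) cells that had been taken towards presomitic mesoderm were compared at day 6 and at day 4 of culture in RDL, a medium that holds the Wnt agonist Rspo3, DMSO and LDN, an inhibitor of BMP receptors. The comparison set 3 arrays of Pax3-GFP+ cells sorted at day 6 against 3 arrays of Msgn1-repV+ cells sorted at day 4, which were 6 of the 15 arrays in the series. The day-6 cells came from the ES line CK35 of strain 129Sv and carried the Pax3 reporter. The day-4 cells came from the ES line E14 of strain 129P2 and carried the Msgn1 reporter. Both had spent 2 days with BMP4 at 10 ng/ml in serum-free N2B27 with 1% KSR and 0.1% BSA, and then stayed in DMEM with 15% KSR, Rspo3 at 10 ng/ml, DMSO at 0.5% and LDN at 0.1 µM. For reference, 3 day-6 and 3 day-4 arrays came from CDL medium, in which CHIRON99021 (1 µM), a small-molecule activator of Wnt signalling, took the place of Rspo3; lines and sorts were the same as in RDL. The last 3 arrays held undifferentiated E14 ES cells at day 0, kept in LIF with CHIRON99021 and PD0325901 on feeder cells. ES line, strain and reporter all changed with the day, so that in every result below they cannot be told apart from it. The sorted cells are also a chosen share of each culture, and fewer cells of a type and less RNA per cell cannot be told apart in them. The labels call the 3 arrays of a group biological replicates without saying how the cultures were kept apart. The p-values therefore measure only the spread between arrays within groups, estimated from all 15 arrays together.

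The presomitic mesoderm is the paired tissue at the tail end of the embryo from which somites are cut off one after another. Its posterior part is held immature by Wnt and FGF signals, carries the Notch-dependent segmentation clock and expresses the transcription factors Msgn1 and Tbx6. Towards the anterior end retinoic acid takes over, the segment boundary is set, and the new somite divides into dermomyotome, which expresses Pax3 and gives skeletal muscle and dermis, and sclerotome, which expresses Pax1 and gives the axial skeleton.

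Values are deposited microarray signals, linear numbers in arbitrary units, and a log2 difference is the mean of log2(signal + 12.6) at day 6 minus that at day 4. Adding 12.6 understates the change of dim genes, and no detection calls were used, so a low signal is not shown to be absence. The median probe set had a signal of 29.4 to 31.2 over the 15 arrays, and the 3'/5' signal ratio of Gapdh, a sign of RNA integrity, lay between 0.974 and 1.11. Replicate 1 of day 6 stood apart. Its actin 3'/5' ratio of 1.90 was the highest of the series (the others gave 1.43 to 1.85), and 145 genes were at least 2-fold below both of its mates. Of these genes 12 were called higher at day 6, 45 lower and 88 neither. Named calls that ended, and counts of called list members that moved by more than 1.5 times, when this array was left out alone or with the CDL array below are given both ways. In CDL, replicate 1 of day 4 stood apart in a like manner, with 192 genes at least 2-fold above both mates.

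Of 12400 genes tested with limma, 3838 (31.0%) passed an adjusted p of 0.05, 1711 (13.8%) higher at day 6 and 2127 (17.2%) lower. At least 2-fold and past the test were 344 higher genes (2.77%) and 414 lower ones (3.34%). Without replicate 1 of day 6 the counts were 1671 higher and 1885 lower. The signals of the 3 day-6 arrays did not overlap those of the 3 day-4 arrays for 5480 genes (44.2%), of which 20.1% of all genes lay higher and 24.1% lower. The median log2 difference over all genes was -0.02. The counts of gene groups below are read against these shares.

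The genes that rose most included Igfbp5, a secreted binder of insulin-like growth factors, which had 2908, 5499.8 and 4978 units at day 6 and 24.4, 30.4 and 34.3 units at day 4 (log2 difference 6.68 ± 0.22 (SE), adjusted p = 2.6e-12). Tgfbi, a matrix protein induced by TGF-beta, had 1751, 2884 and 3111 at day 6 and 46.1, 38.8 and 48.7 at day 4 (log2 difference 5.47 ± 0.19 (SE), adjusted p = 4e-12). All day-6 arrays were far above all day-4 arrays for both. The next in size were the nuclear receptor Nr2f1 (4.79), the somite homeobox gene Meox2 (4.78), the fibrillar collagen Col3a1 (4.63), the purine salvage enzyme Hprt (4.60), the adhesion protein Flrt2 (4.54), the surface protease Fap (4.44), Asb4 (4.36), the cartilage collagen Col9a1 (4.30), the transcription factor Foxd1 (4.27), the lipid enzyme Agmo (3.97), the transcription factor Ebf2 (3.97), the chemokine Cxcl12 (3.96) and the cadherin Cdh11 (3.77).

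The largest fall was that of Phlda2, an imprinted growth regulator, with 26.8, 36.5 and 33.1 units at day 6 and 2037, 2138 and 2072 units at day 4 (log2 difference -5.56 ± 0.15 (SE), adjusted p = 3.6e-13). It was followed by the Notch ligand Dll1 (-4.77), skeletal actin Acta1 (-4.58), the lectin Lgals3 (-4.498), the Notch feedback gene Nrarp (-4.45), Mid1 (-4.35), Hoxb1 (-4.34), Tbx6 (-4.31), the blood and endothelial cofactor Lmo2 (-4.31), Dll3 (-4.23), the primitive streak factor Mixl1 (-4.22), Cited1 (-4.21), the growth factor Fgf8 (-4.21), Rspo3 (-4.05) and the interferon-induced Gbp2 (-4.05). Developmental regulators of the posterior presomitic mesoderm thus stood beside genes of other roles. All 30 genes also passed the test without replicate 1 of day 6 and replicate 1 of day 4 in CDL.

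**Figure D1:**
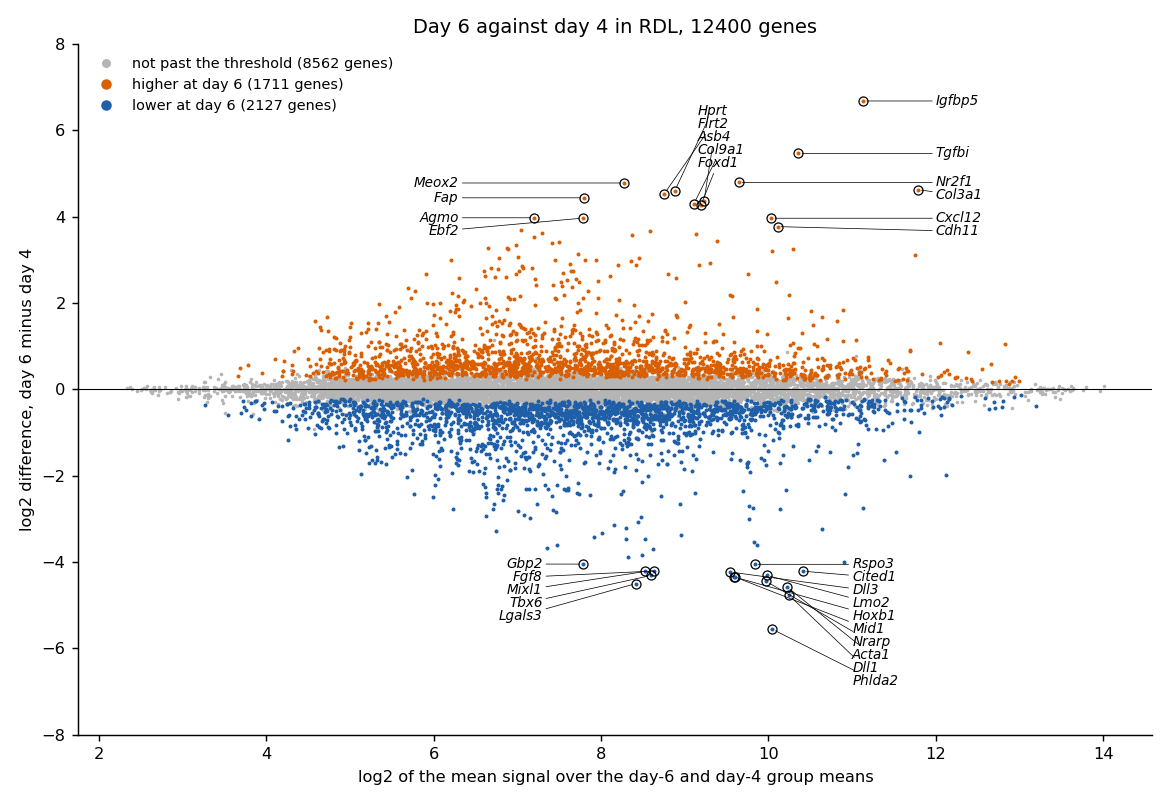
Log2 difference (day 6 minus day 4, vertical axis) of every gene tested against the log2 of its mean signal over both days (horizontal axis); coloured points passed the adjusted p of 0.05, and the 15 largest changes each way are named. Igfbp5 stands alone at the top with 6.68, and Phlda2 at the bottom with -5.56.

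The reporter genes used for the sorts are given as a description. Msgn1 had 29.04, 31.1 and 25.9 units in the day-6 cells, which were sorted on Pax3, and 241, 198 and 148 in the day-4 cells, which were sorted on Msgn1. Pax3 had 252, 366 and 292 units at day 6 and 101, 105 and 119 at day 4. Each sorted gene was thus higher in the cells sorted on it, and the day-4 cells had a Pax3 signal above that of ES cells (58.9 ± 5.24 units, mean ± SD, n = 3).

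Genes of the posterior presomitic mesoderm fell together, with 1 exception among those called. Of 21 listed genes, all tested and with Msgn1 itself among them, 19 were called lower and 1 higher, with a median log2 difference of -2.21, against -0.02 over all genes. Tbx6, the T-box factor that keeps this tissue mesodermal, had 27.9, 30.3 and 19.6 units at day 6 and 863, 775 and 616 at day 4 (log2 difference -4.31 ± 0.13 (SE), adjusted p = 1.3e-12). Its day-6 signals lay below the array median. Fgf8 had 24.9, 27.3 and 36.99 units at day 6 and 695, 762 and 839 at day 4. Rspo3, the gene of the agonist that was added to the medium, had 101, 78.7 and 99.6 units at day 6 and 1824, 1642 and 1735 at day 4. For both genes each day-6 array lay more than 10-fold below each day-4 array. The caudal homeobox genes Cdx1 (-3.60), Cdx2 (-2.21) and Cdx4 (-0.31), which position the Hox code of the trunk, fell as well, as did Wnt5a (-1.51), Wnt5b (-1.25), Wnt3a (-0.57), the apelin receptor Aplnr (-2.74) and the protocadherin Pcdh8 (-3.70). The glypican Gpc3 did not pass, with 3139, 2772 and 2521 units at day 6 and 2951, 2726 and 2700.3 at day 4. Called higher was Cyp26a1, which degrades retinoic acid and is a gene of the tail bud: it had 548, 742 and 800.4 units at day 6 and 412, 362 and 350.0 at day 4 (log2 difference 0.86 ± 0.14 (SE), adjusted p = 0.00018), with no overlap.

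Primitive streak and tail bud genes behaved alike, with 12 of 16 tested called lower, 2 higher and a median of -2.28. Mixl1, Sp5 (-3.38) and Sp8 (-2.55), Fgf4 (-2.77), Fgf3 (-2.65), Evx1 (-2.39), Nodal (-2.34) and its cofactor Tdgf1 (-2.23) all fell. Fgf4, for instance, had 9.75, 9.11 and 10.4 units at day 6 and 149, 143 and 129.7 at day 4. The 2 genes that rose were Cer1, a secreted Nodal and BMP antagonist, with 219, 206 and 216 units at day 6 and 77.5, 73.1 and 67.5 at day 4, and Foxa2, a factor of endoderm and notochord, with 44.9, 50.5 and 75.3 units at day 6 and 17.3, 19.8 and 21.4 at day 4. Gsc and Wnt3 were too dim to be tested, and Brachyury was not analysed here because no probe set was assigned to it alone.

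**Figure D2:**
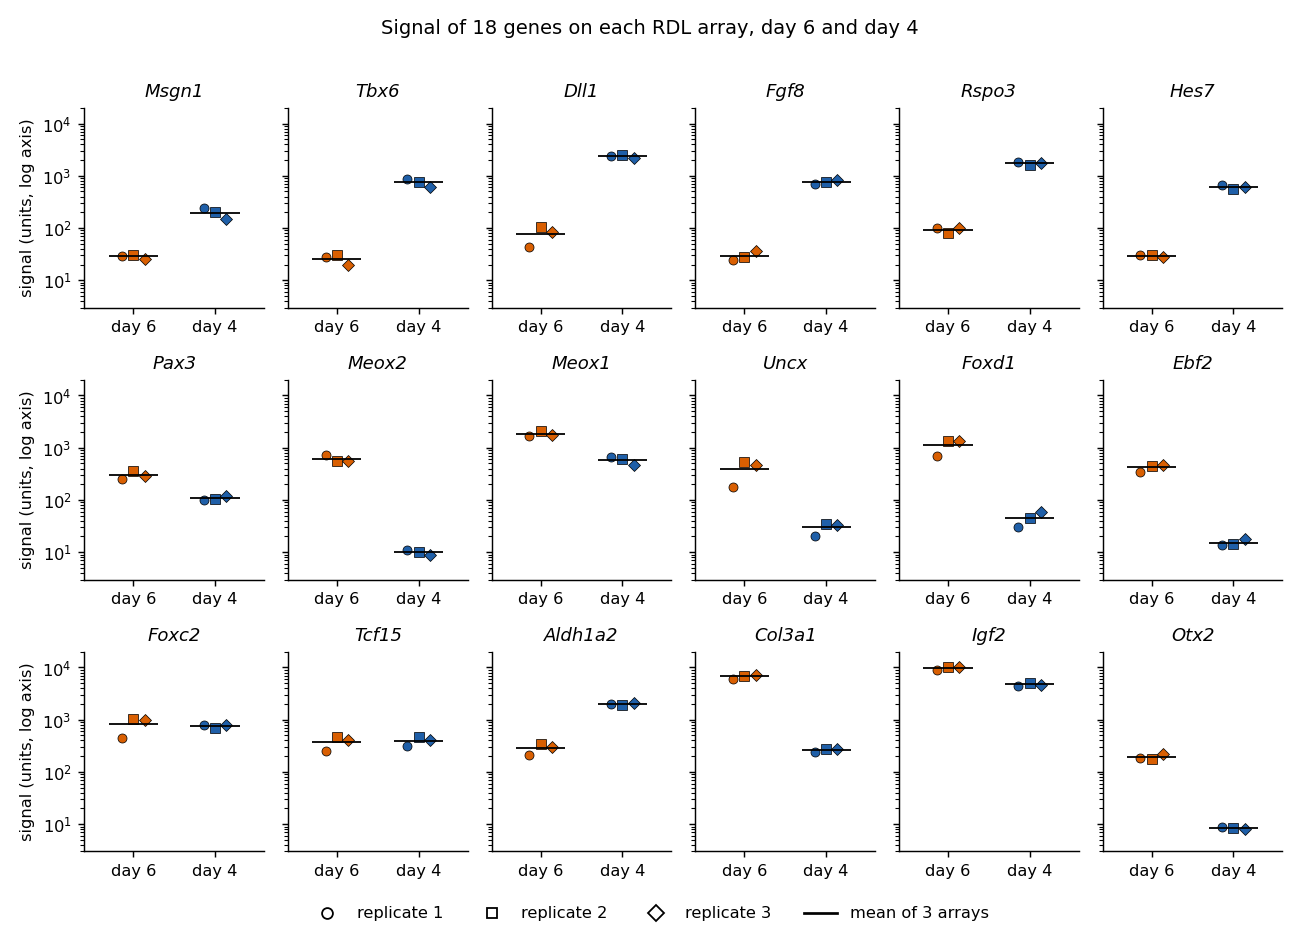
Signal (units, log axis) of 18 genes on each RDL array, day 6 left and day 4 right; circles, squares and diamonds are replicates 1, 2 and 3 and the bar is the mean of 3 arrays. Day-6 and day-4 points are apart for all genes but Foxc2 and Tcf15, whose points overlap. Replicate 1 of day 6 is the lowest of its group for many of the genes, Dll1, Uncx, Foxd1, Foxc2, Pax3 and Tcf15 among them.

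In the Notch pathway the largest falls were those of the ligands Dll1 and Dll3, the feedback gene Nrarp and the clock gene Hes7. Of 19 tested genes 9 were called lower and 1 higher (median -0.61); with the replicate number as a block 10 were lower and 2 higher. Dll1, the ligand that marks the presomitic mesoderm, had 44.1, 105 and 84.97 units at day 6 and 2354, 2519 and 2186 at day 4 (log2 difference -4.77 ± 0.25 (SE), adjusted p = 6.3e-10). Dll3, the ligand that acts within the cell, had 45.4, 76.9 and 74.03 units at day 6 and 1385, 1529 and 1367 at day 4. Every day-6 array lay more than 10-fold below every day-4 array for both ligands. The cyclic genes followed: Hes7, the repressor at the core of the clock, had 30.00, 30.9 and 27.4 units at day 6 and 661, 554 and 616 at day 4, and Lfng, which modifies Notch and oscillates with it, had 34.9, 28.5 and 24.8 at day 6 and 109, 137 and 127 at day 4. The receptor Notch1 (-1.91), the ligand Jag1 (-1.15) and the targets Hey1 (-0.75) and Hey2 (-0.64) fell less than Dll1, Dll3 and Hes7. Notch2 (-0.61), Notch3 (-0.56), the nuclear effector Rbpj (0.00), Rfng (-0.31) and Hes1 (0.34) did not pass. Notch3 passed with the replicate block (adjusted p = 0.025) and, like Notch2, did not without replicate 1 of day 6, which gave the lowest signal of both. The gene called higher was Heyl (52.5, 65.4 and 53.7 units at day 6 and 33.1, 34.1 and 36.2 at day 4), a call that is lost without replicate 2 of day 6.

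Feedback genes and targets of canonical Wnt signalling showed 11 lower and 1 higher of 16 tested, with a median of -1.36. Axin2, the usual readout of the pathway, had 98.9, 124 and 112 units at day 6 and 389.6, 568 and 336 at day 4 (log2 difference -1.81 ± 0.23 (SE), adjusted p = 1.4e-05). The transcription factor Lef1 had 122, 241 and 207 at day 6 and 1568, 1584 and 1514 at day 4, and Sp5 had 75.7, 77.5 and 69.9 at day 6 and 777, 1232 and 744 at day 4. All 3 genes were lower on every day-6 array although Rspo3 stayed in the medium on both days. The receptor Tnfrsf19 (-3.53) and the inhibitors Nkd1 (-2.0) and Nkd2 (-1.71) fell too, and Ccnd2 (-0.01) and Myc (-0.26) did not pass. The exception was the secreted inhibitor Dkk1, with 191, 269.9 and 242 units at day 6 and 93.4, 185 and 95.96 at day 4 (log2 difference 0.90 ± 0.24 (SE), adjusted p = 0.0099); the call is lost when replicate 1 or replicate 3 of day 4 is left out. Among 28 ligands, receptors and secreted modulators 9 rose and 9 fell. Of the ligands in this list Wnt6 (-2.09), Wnt8a (-1.48) and Wnt4 (-0.52) fell, besides those above, and Wnt11 (-0.02) did not pass. Lower too were the receptor Fzd10 (-2.31) and the secreted antagonist Frzb (-1.73). Higher at day 6 were the receptors Fzd1 (1.57), Fzd4 (1.57), Fzd5 (2.23) and Fzd8 (1.92), the Rspo3 receptor Lgr4 (794, 1199 and 1287 units at day 6 and 469.6, 585 and 633 at day 4) and the antagonist Sfrp1 (1.11). The co-receptors Lrp5 (0.10) and Lrp6 (0.00) did not pass.

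The promoters of genes in the posterior, Notch and Wnt target lists that fell by at least 1.5 were searched for 4 motifs, on both strands, in windows of 250 bases before to 50 bases after the start site (RefSeq, GRCm38.p6). Searched were TGGGAA, the core of sites of the Notch effector RBPJ, CTTTGA, the core of TCF/LEF sites, GGTGTGA, a T-box motif, and TGACGTCA, the cAMP response element. Of 22 such genes 17 had a window in the table, 24 windows in all. The RBPJ letters occurred in 8 of the 24 windows (33.3%, 6 genes), the TCF/LEF letters in 5 (20.8%, 5 genes), and the others in none. Overlapping windows of Lef1 share the same RBPJ match, which is counted in each of them. No window of Dll1, Dll3, Nrarp, Notch1, Tbx6, Axin2, Nkd1, Cdx2 or Pcdh8 held any of the 4 motifs. Over all 32851 promoters of the table the shares were 25.6% for the RBPJ letters, 16.0% for TCF/LEF, 3.98% for the T-box motif and 1.79% for the cAMP element. A match is only a match of letters, and its absence says only that they are not in this window. Printed here are the windows of Msgn1 and Sp5, which hold both kinds of match, and of the clock genes Hes7 and Lfng, which hold the RBPJ letters; matches are in capitals, and positions count the first base of the match from the start site. Msgn1 (chr12:11208899-11209198, minus strand) holds RBPJ letters at -114 and TCF/LEF letters at -143 and -202. Sp5 (chr2:70474673-70474972, plus strand) holds RBPJ letters at -66 and -17 and TCF/LEF letters at -104 and -204. In Hes7 (chr11:69120203-69120502, plus strand) the RBPJ letters begin at -180, and in Lfng (chr5:140607091-140607390, plus strand) they begin at -135 and -108.
Msgn1: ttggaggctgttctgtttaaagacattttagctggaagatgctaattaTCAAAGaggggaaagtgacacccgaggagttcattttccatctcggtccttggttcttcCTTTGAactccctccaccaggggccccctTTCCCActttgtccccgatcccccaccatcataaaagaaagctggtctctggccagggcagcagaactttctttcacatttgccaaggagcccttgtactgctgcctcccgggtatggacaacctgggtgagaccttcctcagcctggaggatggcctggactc
Sp5: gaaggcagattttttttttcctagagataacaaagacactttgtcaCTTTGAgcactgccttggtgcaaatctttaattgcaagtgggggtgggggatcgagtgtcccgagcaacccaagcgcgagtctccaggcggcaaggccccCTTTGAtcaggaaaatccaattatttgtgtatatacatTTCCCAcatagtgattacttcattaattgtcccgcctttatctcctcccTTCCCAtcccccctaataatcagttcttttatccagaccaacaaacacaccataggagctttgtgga
Hes7: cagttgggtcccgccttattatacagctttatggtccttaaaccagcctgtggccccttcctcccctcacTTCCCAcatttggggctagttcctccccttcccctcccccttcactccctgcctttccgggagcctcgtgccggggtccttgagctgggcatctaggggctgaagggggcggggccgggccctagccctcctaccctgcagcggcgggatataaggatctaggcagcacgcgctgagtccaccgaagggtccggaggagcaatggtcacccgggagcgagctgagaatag
Lfng: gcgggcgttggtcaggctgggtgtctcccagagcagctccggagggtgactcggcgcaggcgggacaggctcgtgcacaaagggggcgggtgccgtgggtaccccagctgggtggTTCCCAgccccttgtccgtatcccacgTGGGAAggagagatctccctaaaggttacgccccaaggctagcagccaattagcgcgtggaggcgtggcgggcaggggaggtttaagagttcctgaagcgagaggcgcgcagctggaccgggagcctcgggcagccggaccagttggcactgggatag

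FGF signalling genes fell broadly: 18 of 25 tested ligands, receptors and ERK feedback genes were lower and 5 higher (median -0.75). Beside the ligands Fgf8, Fgf4 and Fgf3 these were Fgf15 (-1.90), Fgf9 (-0.88) and Fgf17 (-0.62), the receptor Fgfr1 (236, 499.9 and 495 units at day 6 and 1091, 1149.7 and 1070.4 at day 4), and the transcriptional targets Etv5 (-2.42) and Etv4 (-1.27). The feedback inhibitors Spry2 (-0.93), Spry4 (-0.75), Spred2 (-1.68), Il17rd (-1.52), Dusp4 (-0.99) and Dusp6 (-0.56) were lower as well. Receptors did not move together: Fgfr2, which had 154, 237 and 252 units at day 6 and 74.8, 68.2 and 99.4 at day 4 (1.27), was higher, and Fgfr3 (-0.27) and Fgfr4 (0.01) did not pass. The other higher genes were Flrt2, Flrt3 (1.68), Fgf5 (1.54) and Spry1 (1.0).

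For retinoic acid, 3 of 15 tested genes rose and 4 fell (median -0.08). Aldh1a2, the synthesizing enzyme of the anterior presomitic mesoderm and somite, had 214, 338 and 299.8 units at day 6 and 1995, 1872 and 2056 at day 4 (log2 difference -2.77 ± 0.16 (SE), adjusted p = 1.7e-09). It was thus lower on every day-6 array, while Cyp26a1 was higher. The receptor Rarb, itself a target of retinoic acid, had 179, 161 and 165 units at day 6 and 66.7, 95.7 and 61.4 at day 4 (1.07), the receptor Rarg fell (-1.06) and Rara did not pass (-0.08). Of the binding proteins Crabp1 fell (-1.70) and Crabp2 did not pass (0.28).

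The Hox genes, which encode position along the body axis, are given by paralogue group. In groups 1 to 5, 6 of 13 tested were lower and none higher, led by Hoxb1 (45.8, 74.98 and 63.3 units at day 6 and 1418, 1716 and 1299.8 at day 4) and Hoxd1 (-2.67); Hoxb4 (-0.06), Hoxa3 (-0.26) and Hoxb3 (-0.29) did not pass. In groups 6 to 9, 2 of 9 rose, Hoxa9 (124, 247 and 227 units at day 6 and 56.3, 65.1 and 55.4 at day 4) and Hoxc9 (0.88). The 2 that fell were Hoxd9 (-1.24) and Hoxb6 (-0.45, -0.29 and no longer past the test without replicate 1 of day 6). Of 10 measured genes of groups 10 to 13, 9 were too dim to be tested and the tenth, Hoxc13, did not pass (-0.03). The brightest of the dim ones at day 6 was Hoxc10, with 28.2, 42.2 and 44.4 units at day 6 and 12.6, 10.7 and 13.5 at day 4, which did not overlap. Among Hox cofactors and related regulators Meis1 (1.33), Meis2 (0.57), Nr2f1 and Nr2f2 (2.19) rose.

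Genes of the anterior presomitic mesoderm and forming somite moved in both directions, 10 of 20 tested being higher and 4 lower (median 0.70), Pax3 among the higher ones. Meox2 had 712, 562 and 558 units at day 6 and 10.9, 10.1 and 8.86 at day 4 (log2 difference 4.78 ± 0.17 (SE), adjusted p = 4.1e-12). Its partner Meox1, which acts with it in somite patterning, was already present at day 4, with 1708, 2047 and 1725 units at day 6 and 662, 618 and 463 at day 4 (log2 difference 1.64 ± 0.18 (SE), adjusted p = 3.6e-06). Neither gene overlapped between the days. Foxd1 had 684, 1332 and 1360.5 units at day 6 and 30.8, 45.4 and 58.8 at day 4, and Uncx, which marks the posterior compartment of the somite, had 175, 543 and 465 at day 6 and 20.1, 35.3 and 33.9 at day 4 (log2 difference 3.14 ± 0.33 (SE), adjusted p = 2.3e-06). Replicate 1 of day 6 was the lowest of its group for both, and still above every day-4 array. Tbx18, a marker of the anterior compartment (2.09), Ebf1 (1.94), Ebf2, Ebf3 (2.74) and Cdh11 rose as well.

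The 4 lower genes of this list, a share near the 17.2% of all genes, included regulators of the segment boundary. Mesp2, which establishes the anterior border of the next somite, had 27.6, 52.99 and 52.4 units at day 6 and 129, 218 and 241 at day 4 (log2 difference -1.87 ± 0.21 (SE), adjusted p = 5.2e-06). Its relative Mesp1 had 65.2, 47.4 and 50.99 at day 6 and 202, 254 and 229.5 at day 4, and Ripply2, the target that switches Mesp2 off, had 8.14, 6.37 and 6.12 at day 6 and 65.5, 50.99 and 73.8 at day 4. The fourth was Aldh1a2. Several somite genes did not pass: Tcf15, which drives somite epithelium, had 256, 466 and 411 units at day 6 and 313, 461 and 411 at day 4, and Foxc2 had 449.6, 1049 and 978 at day 6 and 802, 698 and 779 at day 4. The days overlapped for both, as they did for Foxc1 (-0.14) and the ephrin Efnb2 (-0.56), which passed as lower with the replicate block (adjusted p = 0.03).

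Among dermomyotome and muscle progenitor genes 6 of 11 tested rose, Pax3 included, and 2 fell (median 0.98). Sim1, a factor of the lateral dermomyotome, had 401, 409.5 and 355 units at day 6 and 80.8, 63.1 and 67.99 at day 4 (log2 difference 2.27 ± 0.15 (SE), adjusted p = 8.7e-09), and Zic1 had 104, 225 and 245 at day 6 and 14.9, 17.4 and 12.2 at day 4. Both stood apart by day. Eya1 (1.28), the laminin receptor Itga6 (0.98) and Dmrt2 (85.8, 203 and 119 units at day 6 and 40.8, 92.96 and 50.8 at day 4, overlapping) also rose, and the receptor Met, which guides limb muscle precursors, fell (-0.96). Lbx1 of migrating precursors did not pass (33.4, 39.7 and 33.98 units at day 6 and 29.9, 24.1 and 31.9 at day 4). Pax7, En1, Alx4 and Eya2 were too dim to be tested.

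Muscle determination genes were low on both days. Myod1, Myog and Myf6 were too dim to be tested. Myod1 had 19.1, 16.1 and 19.3 units at day 6 and 21.9, 16.4 and 17.9 at day 4, which overlapped. Myog had 19.9, 27.8 and 26.5 at day 6 and 13.03, 10.9 and 12.2 at day 4, and Myf6 had 11.3, 11.23 and 12.2 at day 6 and 6.93, 8.27 and 6.94 at day 4, both without overlap and below the array median. Myf5 did not pass (31.95, 35.4 and 32.4 units at day 6 and 26.04, 38.9 and 26.96 at day 4). Of the 11 tested genes of this list 3 rose and 3 fell, and the members that fell were structural: Acta1 (70.5, 85.9 and 98.5 units at day 6 and 2201, 2571 and 2146 at day 4), cardiac actin Actc1 (-1.75) and the myosin light chain Myl1 (-1.67). Those that rose were Mef2c (0.51), Tnnt2 (0.80) and Tnnt1 (0.34, 0.31 and no longer past the test without replicate 1 of day 6).

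Sclerotome genes rose, with 10 of 12 tested higher, none lower and a median of 1.499. Pax1 had 147, 294 and 294 units at day 6 and 22.96, 19.1 and 25.04 at day 4 (log2 difference 2.82 ± 0.22 (SE), adjusted p = 7.5e-08). The cartilage regulator Sox9 had 162, 378 and 246 at day 6 and 25.9, 44.00 and 40.1 at day 4, and its target Col2a1 had 237, 398 and 436 at day 6 and 40.4, 47.8 and 35.96 at day 4. The day-6 arrays thus held signal of sclerotome genes although they were sorted on Pax3, and every one lay above every day-4 array for these 3 genes. Twist1 (1.67), Twist2 (2.16) and Pax9 (0.59) rose too. Of the Hedgehog pathway, which induces sclerotome in the embryo, 7 of 10 tested genes were higher and none lower (1 lower with the replicate block). The targets Gli1 (82.8, 118 and 140.3 units at day 6 and 39.9, 36.6 and 34.7 at day 4), Ptch1 (712, 1189.6 and 1311 at day 6 and 458, 571 and 650.3 at day 4) and Hhip (1.33) and the co-receptors Boc (1.42) and Cdon (1.09) were among them. The ligand Shh did not pass (47.00, 64.7 and 64.9 units at day 6 and 37.5, 39.2 and 40.2 at day 4), and Dhh and Ihh were too dim to be tested. BMP genes were mixed, 5 of 18 higher and 3 lower: Msx1 (-2.30), Msx2 (-0.68) and Bmp4 (-1.39) fell, and Bmp5 (334, 314 and 315 units at day 6 and 30.4, 22.1 and 36.6 at day 4), Id2 (1.67) and Fstl1 (1.13) were the largest rises.

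Pax3 also marks neural crest and dorsal neural tube, whose markers are given beside the Pax3-sorted cells. Of 8 tested neural crest genes 2 rose, Snai2 (725, 682 and 760.0 units at day 6 and 31.2, 46.5 and 61.3 at day 4) and Ets1 (2.58), both also expressed in mesoderm, and 2 fell. The defining markers Sox10 (52.8, 53.1 and 49.6 units at day 6 and 59.6, 61.7 and 53.9 at day 4), Foxd3 (10.6, 11.19 and 12.1 at day 6 and 10.8, 10.4 and 11.4 at day 4) and Tfap2a (22.3, 32.5 and 31.1 at day 6 and 30.2, 27.4 and 26.8 at day 4) did not pass. The summed signal of the list was 1422 to 1995 units at day 6 and 459.9 to 505 at day 4. This sum includes Snai2 and Ets1, the only members called higher, while none of these defining markers passed. Of 9 tested neural genes 1 rose, Irx3 (0.87), a call lost without replicate 2 or replicate 3 of day 6 or replicate 1 of day 4, and Sox2 had 61.3, 213 and 192 units at day 6 and 43.5, 61.8 and 62.3 at day 4. The log2 difference of Sox2 was 1.15 and short of the threshold with all arrays, and 1.66 and still short of it (adjusted p = 0.15) without replicate 1 of day 6. With replicate 1 of day 4 in CDL left out as well, the same difference passed (adjusted p = 1.5e-06), and 2 neural genes were higher. Pax6 (39.7, 38.3 and 38.7 units at day 6 and 39.8, 28.2 and 30.5 at day 4) and Sox1 (-0.05) did not pass, and the list summed to 729.6 to 1173 units at day 6 and 673 to 797 at day 4. The part of such cells in the results was not tested.

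Markers of other mesoderm moved as follows. Of 7 measured genes of intermediate mesoderm 4 were tested and fell, Lhx1 (122, 295 and 259.6 units at day 6 and 808, 875 and 692 at day 4), Sall1 (-1.70), Emx2 (-0.74) and Osr1 (-0.51). The other measured members, Wt1, Gata3 and Pax8, were too dim to be tested, and Wt1 lay on the other side, with 24.9, 46.1 and 44.1 units at day 6 and 10.3, 9.76 and 10.9 at day 4 and no overlap. Of 9 lateral plate genes 2 rose, led by Prrx1 (193, 258 and 269 units at day 6 and 15.6, 17.4 and 18.7 at day 4), and 4 fell, led by Isl1 (-1.499). Of 13 endothelial and blood genes 7 rose and 1 fell. Fli1 had 219, 281 and 269.9 units at day 6 and 7.15, 7.80 and 9.19 at day 4 (log2 difference 3.70 ± 0.13 (SE), adjusted p = 6.7e-12), Sox17 had 49.7, 117 and 119.9 at day 6 and 7.10, 7.44 and 8.33 at day 4, and Kdr had 139.7, 157 and 139 at day 6 and 68.2, 51.7 and 56.8 at day 4. Lmo2, by contrast, had 92.4, 79.4 and 84.5 at day 6 and 1687, 2133 and 1983 at day 4, and Pecam1 did not pass (13.2, 10.47 and 12.2 units at day 6 and 12.6, 12.1 and 11.3 at day 4). Cdh5, Tie1, Tal1 and Gata1 were too dim to be tested. The list summed to 1087 to 1189 units at day 6 and 2235 to 2667 at day 4; Lmo2 gave most of the day-4 sum.

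Endoderm and notochord markers, as signs of other cells in the sorts, moved in both directions. Of 10 tested endoderm genes 4 rose and 3 fell, and the summed signal of the list was 2519 to 2874 units at day 6 and 4126 to 5573 at day 4. Krt8, which fell and is not particular to endoderm, gave most of the day-4 sum. Foxa1, a factor of endoderm that acts beside Foxa2, had 69.2, 148 and 112 units at day 6 and 19.3, 16.4 and 16.9 at day 4 (log2 difference 1.97 ± 0.17 (SE), adjusted p = 2.1e-07), and Trh had 632, 552 and 654 at day 6 and 54.7, 73.9 and 89.4 at day 4. With Foxa2 and Sox17 these were the 4 higher genes, none of which overlapped between the days. The 3 lower genes, Epcam, Krt8 and Krt18 (-0.52), are shared with other epithelia. The liver and yolk sac markers Ttr (60.5, 47.8 and 45.9 units at day 6 and 50.7, 44.1 and 43.8 at day 4) and Hnf4a (-0.04) did not pass, and Afp, Apoa1, Foxa3 and Sox7 were too dim to be tested. Of 4 tested notochord and floor plate genes Foxa2 rose, Krt19 fell, and Shh and the BMP antagonist Chrd (0.20) did not pass. The part of such cells in the results was not tested.

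Matrix genes rose in 15 of 32 tested cases, against 13.8% of all genes, and fell in 6, a share near the 17.2% of all genes (median 0.24), and without replicate 1 of day 6 and replicate 1 of day 4 in CDL 18 rose and 6 fell. Col3a1 had 6094, 7013 and 7276 units at day 6 and 238, 274 and 277 at day 4 (log2 difference 4.63 ± 0.12 (SE), adjusted p = 3.6e-13), and Col9a1 had 1113, 968 and 1109 at day 6 and 41.99, 44.1 and 39.6 at day 4. The collagens Col1a2 (2.495), Col1a1 (1.61), Col5a2 (1.43) and Col11a1 (1.26), the proteoglycan Lum (269, 199 and 205 units at day 6 and 13.3, 10.7 and 10.6 at day 4) and Dcn (1.65) rose with them. Fibronectin, Fn1, which lines the somite boundary, had 791, 1661 and 1663 units at day 6 and 5293, 5347 and 5083 at day 4 (log2 difference -2.002 ± 0.21 (SE), adjusted p = 2.8e-06), so that every day-6 array lay more than 3-fold below each day-4 array. The laminin chains Lama1 (-0.78), Lama5 (-0.65) and Lamb1 (-0.60) fell too. As a check on feeder or other fibroblasts, a fibroblast list that shares 7 members with the matrix list had 6 of 9 tested genes higher and 3 lower. The higher ones were Col3a1, Lum, Col1a2, Col1a1, Dcn and Postn, and the lower ones were Thy1 (22.6, 15.3 and 11.8 units at day 6 and 61.7, 89.7 and 71.1 at day 4), Tagln (-1.64) and Acta2 (-0.84). The list summed to 12116 to 13071 units at day 6, 8190.0 to 8474 at day 4 and 340.1 to 367 in the ES cells grown on feeders. The part of fibroblasts in the result was not tested.

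Contractile genes went the other way, with 11 of 14 tested lower and none higher (median -0.92). Calponin, Cnn1, had 57.6, 30.5 and 38.02 units at day 6 and 220.1, 286 and 259 at day 4, and Tagln had 1905, 1006 and 1101 at day 6 and 4106, 4027 and 3916 at day 4. Replicate 1 of day 6 was the highest of its group for both. The regulatory light chain Myl9 (-1.58) and tropomyosin Tpm1 (-0.99) fell, and Tpm4 (-0.01) and Myh9 (-0.27) did not pass.

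Epithelial adhesion and surface genes were lower, 9 of 18 with none higher (median -0.36). E-cadherin, Cdh1, had 82.7, 139 and 162 units at day 6 and 358, 411 and 499 at day 4 (log2 difference -1.66 ± 0.22 (SE), adjusted p = 2.6e-05), and Epcam had 70.5, 62.5 and 60.5 at day 6 and 209.8, 256 and 259 at day 4. Keratin Krt8 remained bright, with 875, 802 and 922 units at day 6 and 2824, 2667 and 3806 at day 4, and Krt19 had 52.7, 36.6 and 37.8 at day 6 and 595, 525 and 645 at day 4. Each was lower on every day-6 array. Of 15 mesenchymal genes 7 rose, among them Snai2, Zeb1 (1.09) and Tcf4 (0.73). N-cadherin, Cdh2 (-0.34), Vim (0.06) and Snai1 (-0.34) did not pass, although Snai1 did with the replicate block (adjusted p = 0.025).

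Of the Eph receptors and ephrins, which keep cell populations apart at boundaries, 6 of 16 rose and 6 fell. Epha3 had 173, 136 and 115 units at day 6 and 6.16, 6.47 and 7.03 at day 4 (log2 difference 2.99 ± 0.11 (SE), adjusted p = 5.5e-12), and Epha7 (1.54), Efna5 (1.23) and Ephb3 (0.87) were also higher. Epha1 (11.89, 13.4 and 10.8 units at day 6 and 60.2, 118 and 92.5 at day 4), Efna1 (-1.83) and Efna3 (-1.05) were the largest falls, and Epha4 did not pass (-0.32). Apelin, chemokine and guidance genes were split likewise, 7 of 21 higher and 8 lower. Fitted on only the 6 RDL arrays, 6 were higher and 5 lower. Cxcl12 had 1414, 2406 and 2132 units at day 6 and 92.6, 129 and 118 at day 4, the semaphorin receptor Nrp1 had 771, 1173 and 1196 at day 6 and 66.9, 56.2 and 105 at day 4, and its ligand Sema3a rose as well (2.53). For all 3 the days did not overlap. The Cxcl12 receptors differed: Ackr3 rose (0.97), and Cxcr4 had 65.8, 72.9 and 78.2 units at day 6 and 140.1, 279.6 and 86.6 at day 4, a lower call (-0.95) that is lost without replicate 1 of day 6 or replicate 2 of day 4. Aplnr, Plxna2 (-1.72), Unc5b (-1.34) and Slit3 (-1.23) fell, and Slit2 (1.48) and Ntn1 (1.10) rose.

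Some pluripotency genes were lower in the day-6 cells than in the day-4 cells. Of 23 tested genes 10 fell, 1 rose and 12 did not pass (median -0.91). Without replicate 1 of day 6 and replicate 1 of day 4 in CDL 13 fell and 2 rose. Pou5f1 (Oct4) had 2908 ± 314 units in ES cells (SD, n = 3), 176, 215 and 213 at day 4 and 28.1, 23.1 and 28.6 at day 6. Dppa5a stayed readable throughout, with 12573 ± 91.6 in ES cells, 2012, 2008 and 1868 at day 4 and 566, 268 and 364 at day 6. Nanog had 6205 ± 215 units in ES cells and was low on both days (-0.22, not past the test), and Esrrb and Tfcp2l1 were likewise low on both (0.03 and -0.02). The de novo methyltransferase Dnmt3b (368, 667 and 654 units at day 6 and 1399.6, 1506 and 1534 at day 4), Sall4 (-1.31), Klf5 (-2.44) and Klf4 (-1.51) fell. The gene that rose was Otx2, a factor of epiblast and anterior neural tissue, with 184, 176 and 216 units at day 6 and 8.88, 8.31 and 8.12 at day 4 (log2 difference 3.28 ± 0.24 (SE), adjusted p = 3.6e-08).

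Oncofetal RNA-binding and DNA methylation genes had 6 of 12 tested lower and 1 higher (median -0.33), and 4 lower and 1 higher without replicate 1 of day 6 and replicate 1 of day 4 in CDL. Lin28a, which blocks the maturation of let-7, had 494, 246 and 282 units at day 6 and 545, 831 and 716 at day 4 (log2 difference -1.05 ± 0.34 (SE), adjusted p = 0.028), and Trim71, itself a target of let-7 in the embryo, had 448, 940.1 and 882 at day 6 and 1303, 1607 and 1501 at day 4. Neither overlapped between the days, and the call of Lin28a is lost without replicate 2 or replicate 3 of either day. Uhrf1, which recruits the maintenance methyltransferase, and the chromatin protein Hmga2 were lower by less (-0.45 and -0.38), calls that are both lost without replicate 1 of day 6 or replicate 2 of day 4 and, for Hmga2, without replicate 3 of day 4, and Dnmt1 (-0.25) and Dnmt3a (0.15) did not pass. Tet2, which oxidizes methylcytosine, was the higher gene, with 189, 209 and 196 units at day 6 and 65.1, 68.6 and 61.7 at day 4.

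**Figure D3:**
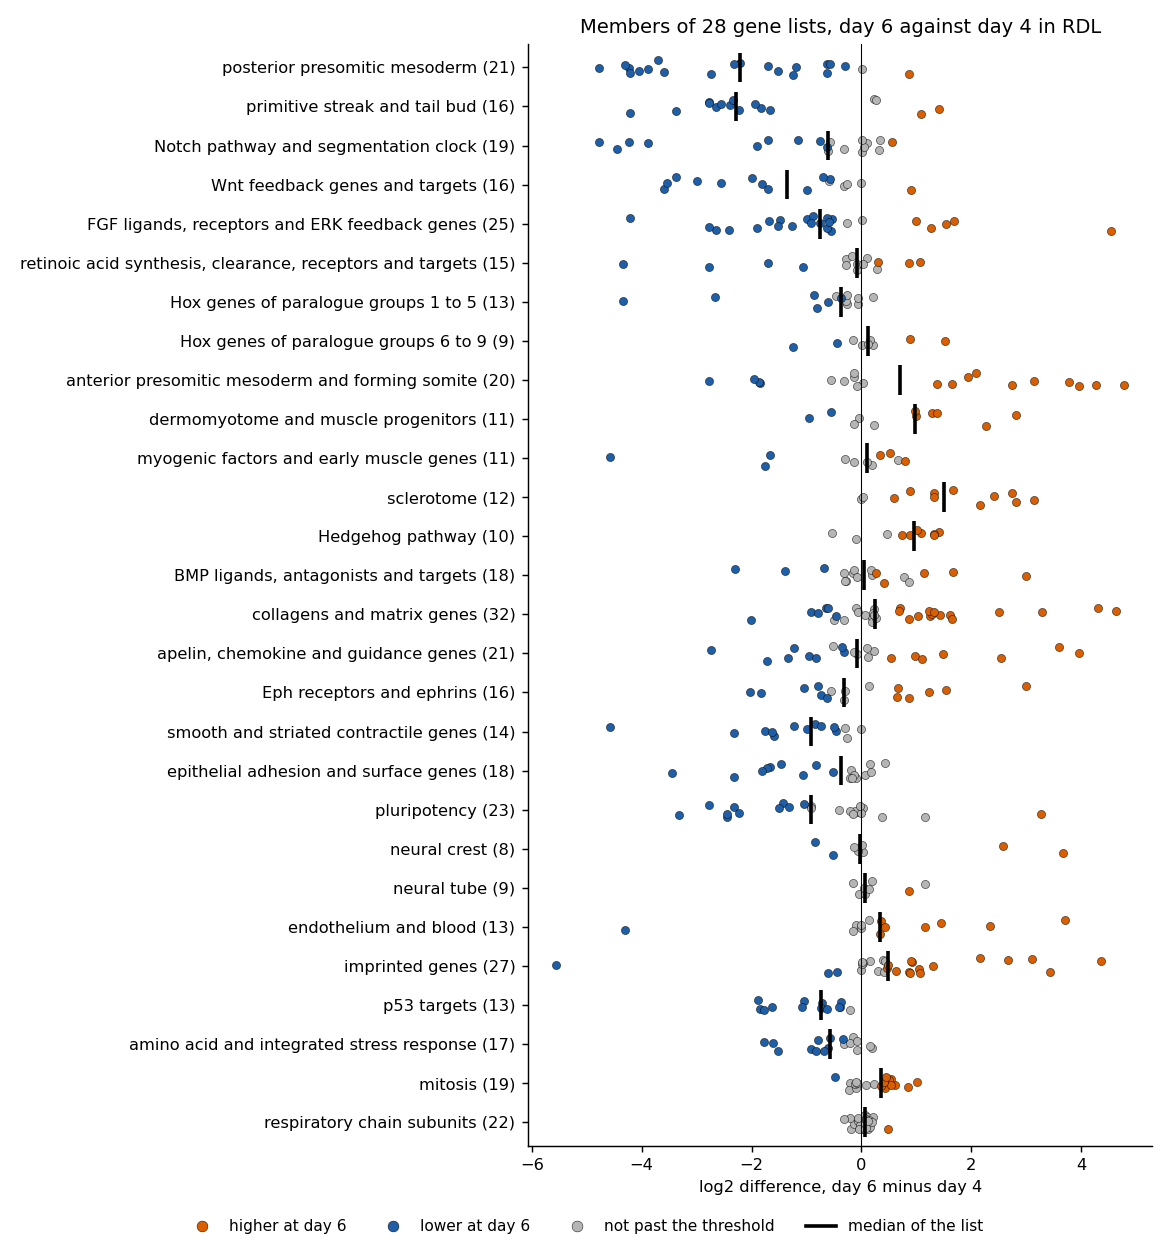
Log2 difference (day 6 minus day 4, horizontal axis) of each tested member of 28 gene lists, one list a row with the number tested in brackets; orange members are called higher at day 6, blue lower, grey neither, and the black bar is the median. The posterior presomitic mesoderm and streak lists lie left of 0 (medians -2.21 and -2.28), the sclerotome list right of it (1.50), and the respiratory chain close to it (0.07).

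Imprinted genes, which are expressed from 1 parental copy and many of which regulate fetal growth, rose in 15 of 27 tested cases, against 13.8% of all genes, and fell in 3 (median 0.48). Mest had 5580.4, 6676 and 6291 units at day 6 and 607, 735 and 775 at day 4 (log2 difference 3.11 ± 0.12 (SE), adjusted p = 8.3e-12). Dlk1, a membrane protein of fetal muscle and other tissues, had 741, 1511 and 1476 at day 6 and 87.3, 117 and 92.3 at day 4. Igf2, already among the brighter genes at day 4, had 8989, 10229 and 10252 at day 6 and 4431, 5131 and 4613 at day 4 (log2 difference 1.05 ± 0.13 (SE), adjusted p = 1.3e-05). No array of day 6 overlapped day 4 in any of them. Nnat (2.67), Plagl1 (2.16), Ppp1r9a (1.30), Meg3 (1.07), Grb10 (0.92), Sgce (0.88), Ndn (0.63) and Peg3 (0.48) rose, and Phlda2 and Magel2 (-0.60) fell. In the insulin-like growth factor list 3 of 14 rose, Igf2, Igfbp5 and Igf1 (129, 86.7 and 98.3 units at day 6 and 15.6, 17.1 and 16.2 at day 4), and 2 fell, Irs2 (-1.25) and Igf2bp1 (-0.95). Without replicate 1 of day 6 and replicate 1 of day 4 in CDL, 8 rose, the receptors Igf1r (0.50 with all arrays, 0.84 without) and Igf2r (0.41 and 0.69) among them.

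Of 13 p53 target genes 12 were lower and none higher (median -0.74). Cdkn1a, the inhibitor p21, had 407, 348 and 403 units at day 6 and 1038, 1384 and 1254 at day 4 (log2 difference -1.63 ± 0.11 (SE), adjusted p = 8.1e-09), and Phlda3 had 217, 229.9 and 225 at day 6 and 716, 874 and 1011 at day 4. Perp (-1.85), Ccng1 (-0.74) and Mdm2 (-0.40) fell as well. Cell cycle genes moved little in size: of 19 mitotic genes 10 rose and 1 fell (9 and 2 without replicate 1 of day 6 and replicate 1 of day 4 in CDL), from Nusap1 (1549, 1187 and 1130.0 units at day 6 and 703, 665 and 528 at day 4) and Aurka (0.61) to Top2a (0.41), with Cdc20 the lower one (-0.48). Of 20 replication genes 2 rose and 5 fell, and without replicate 1 of day 6 and replicate 1 of day 4 in CDL none rose and 6 fell. Pcna (-0.05) and Mcm7 (0.00) did not pass.

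Among metabolic groups, amino acid and integrated stress response genes fell in 10 of 17 cases with none higher (11 lower and 1 higher without replicate 1 of day 6 and replicate 1 of day 4 in CDL), for instance Cth (208, 153 and 138 units at day 6 and 541, 567 and 479 at day 4), the transporter Slc7a5 (-1.52) and Asns (-0.57). Of 18 glycolysis genes 6 fell, led by Aldoc (-2.18), Hk2 (-1.07) and Slc2a1 (-0.82), and 1 rose, Tpi1 (0.47); without replicate 1 of day 6 and replicate 1 of day 4 in CDL 4 rose, and with the replicate block 2. Of 14 hypoxia genes 6 rose, such as Plod2 (1.37) and Bnip3 (1.49), and 2 fell, Ddit4 (-2.14) and Egln3 (-1.10). Respiratory chain genes were nearly level, with 1 of 22 higher, none lower and a median of 0.07; with the replicate block 2 were higher and 2 lower. Of 17 sterol and lipid synthesis genes 3 rose, and 7 without replicate 1 of day 6 and replicate 1 of day 4 in CDL or 6 with the replicate block. Of 20 immediate early genes, which respond to cell handling, 3 rose and 4 fell; 6 rose and 3 fell without those 2 arrays, and 6 rose and 4 fell with the block. Fos had 2383, 2699 and 3851 units at day 6 and 3140.2, 3547 and 2588 at day 4 and did not pass, and Jun had 279, 380.1 and 417 at day 6 and 141, 128 and 131 at day 4 and was higher. Of 10 heat shock genes 4 fell and none rose (1 with the block), and without those 2 arrays 2 fell, Hspb1 (-1.66) being the largest.

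The same step in CDL, without Rspo3, asks whether the change with the day differed between the media. Day 6 against day 4 in CDL, which shares no array with the RDL comparison, gave 4881 of 12400 genes (39.4%), 17.4% higher and 22.0% lower. Of the genes called in RDL 2764 (72.0%) were called in the same direction in CDL, which is 56.6% of the CDL calls, and 54 (1.41%) were called in the opposite direction. The test of the difference, the change in RDL minus the change in CDL, passed for 668 genes (5.39%), 3.08% of all genes with a higher and 2.31% with a lower change in RDL. Of the genes called in RDL, 464 (12.1%) differed from CDL in this test. Most posterior genes fell in both media, 18 of 21 in CDL and 19 in RDL, but Fgf18, lower in RDL, had the opposite sign in CDL. Of the 21, 3 had a higher change in RDL than in CDL (Cyp26a1, Cdx4 and Wnt3a) and 3 a lower one (Dll1, Fgf18 and Pcdh8). The difference did not pass for Tbx6 (0.22 ± 0.19 (SE), adjusted p = 0.65), Fgf8 (0.37), Rspo3 (-0.24), Hes7 (-0.25) and the Wnt target Axin2 (-0.46). Dll1 fell further in RDL (-4.77) than in CDL (-2.54; difference of the changes -2.23 ± 0.36 (SE), adjusted p = 0.0012), and so did Lmo2 (-1.98 ± 0.26 (SE), adjusted p = 0.00017).

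Somite genes were among those whose change differed between the media. Of the 20 somite and anterior presomitic genes, 11 had a lower change in RDL than in CDL and 2 a higher one. Tcf15 had 378 ± 109 units at day 6 and 395 ± 75.4 at day 4 in RDL, and 1081 ± 295 at day 6 and 91.4 ± 13.6 at day 4 in CDL (SD, n = 3 each; difference of the changes -3.46 ± 0.31 (SE), adjusted p = 6.1e-06). Meox1 had 1827 ± 191 and 581 ± 104 units at day 6 and day 4 in RDL, and 2063 ± 472 and 97.2 ± 10.8 in CDL (-2.58 ± 0.25 (SE), adjusted p = 1.3e-05). At day 6 Meox1 was thus close in both media, and the difference lay at day 4, where RDL cells were higher. Uncx (-2.58 ± 0.47 (SE), adjusted p = 0.0033), Efnb2 (-2.58), Dmrt2 (-2.55), Foxc2 (-1.99), Pax3 (-1.61) and Mesp2 (-1.45) had lower changes in RDL too. For Aldh1a2 the difference lay at day 6: it had 284 ± 63.5 units at day 6 and 1974 ± 93.5 at day 4 in RDL, and 1120.4 ± 98.7 and 1452 ± 194 in CDL (-2.40 ± 0.22 (SE), adjusted p = 8.8e-06). The growth factor Fgf18 fell in RDL and had the opposite sign in CDL (-0.63 and 1.80), and the stress gene Nupr1 was level in RDL (-0.02) and higher at day 6 in CDL (2.97, -2.98 ± 0.33 (SE), adjusted p = 3.7e-05).

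Higher changes in RDL than in CDL were found for Otx2 (3.12 ± 0.34 (SE), adjusted p = 3.5e-05), the neuropeptide precursor Trh (3.05), Fli1 (3.003), Asb4 (2.75), Tgfbi (2.71), Dkk1 (2.54), Fzd5 (2.51) and Epha3 (2.41). Otx2 had 192 ± 21.3 and 8.44 ± 0.40 units at day 6 and day 4 in RDL, and 16.99 ± 0.95 and 16.7 ± 16.8 in CDL. Trh had 613 ± 53.7 and 72.7 ± 17.3 in RDL, and 139 ± 18.8 and 162 ± 60.7 in CDL. Dkk1 moved in opposite directions, with 0.90 in RDL and -1.64 in CDL. The day-4 mean of Otx2 in CDL rests on replicate 1: the arrays had 15.9, 17.5 and 17.6 units at day 6 and 36.1, 6.70 and 7.2 at day 4. Without that array Otx2 was higher at day 6 in CDL too (0.60, adjusted p = 0.00028), and the difference between media was 2.68 and past the test. The same array was the highest of the CDL day-4 group for Fzd5 (109, 29.2 and 19.6 units) and Trh (232, 127 and 128 units). Without it their differences between media were 1.94 and 2.78, both past the test. Those of Fli1, Asb4, Tgfbi, Dkk1 and Epha3 were no smaller without it. The counts of this test, 382 with a higher and 286 with a lower change in RDL, were 664 and 552 without replicate 1 of day 6 in RDL.

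**Figure D4:**
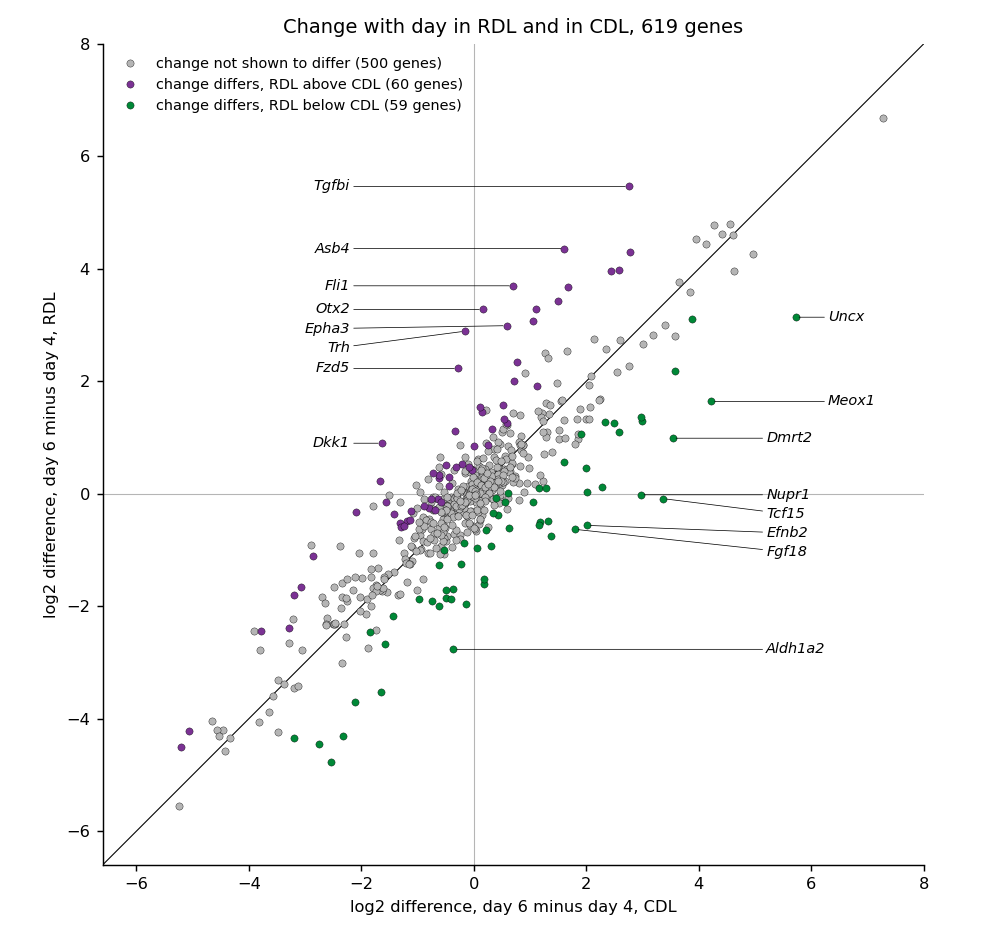
Log2 difference between day 6 and day 4 in RDL (vertical axis) against that in CDL (horizontal axis) for the 619 genes of the lists and of the naming rule. For 500 grey genes the change with the day was not shown to differ between media, 60 changed more upwards in RDL and 59 more downwards. Most points follow the diagonal, Otx2 and Fli1 lie above it and Tcf15 and Dmrt2 below.

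Some of the largest differences separated the 2 ES lines as well as the days. Over all genes, 1863 (15.0%) had every one of the 6 CK35 arrays above or below every one of the 9 E14 arrays, ES cells included. Of the genes called in RDL, 937 (24.4%) met this and also had a day-4 level within 0.5 (log2) of that in undifferentiated ES cells, 454 of them higher and 483 lower at day 6. Hprt is the plainest case, with 35.1 ± 10.48 units in E14 ES cells, 26.2 ± 7.97 at day 4 and 916 ± 80.5 at day 6 in RDL, and 24.4 ± 3.14 at day 4 and 884 ± 28.6 at day 6 in CDL (SD, n = 3 each). Some E14 sublines are known to lack a working Hprt gene; the subline used here is not named. The other large rises in this set were Igfbp5, Tgfbi, Meox2, Fap, Agmo, Ebf2 and Fli1. Many smaller rises described above belong to it too. Among them were the sclerotome and Hedgehog genes Pax1, Sox9, Col2a1, Gli1 and Hhip and the somite and dermomyotome genes Ebf1, Zic1 and Eya1. The matrix genes Lum, Col1a1 and Dcn, the endoderm markers Foxa1, Foxa2 and Sox17, and Snai2, Prrx1, Bmp5, Epha3 and Igf1 were also in the set. Fap, for example, had 9.28 ± 2.57 units in ES cells, 7.90 ± 1.02 at day 4 and 436 ± 75.4 at day 6 in RDL. The largest falls were Mpzl2 (536 ± 27.5 in ES cells, 450.3 ± 25.01 at day 4, 30.9 ± 2.29 at day 6), Lefty2 (-2.77), Cbr3 (-2.47), Nkx1-2 (-1.94), Dusp14 (-1.86), Itpk1 (-1.84), Thumpd1 (-1.81) and Sesn2 (-1.78). Line and day cannot be told apart for any of these. The Y-linked Eif2s3y had 504, 491 and 499.9 units at day 6 and 479, 534 and 560.1 at day 4, so signal of a Y-linked gene was present in both lines. Because the rule asks for a day-4 level near that of ES cells, Tbx6, Fgf8, Hes7 and Rspo3 do not belong to the set. They were low in E14 ES cells (Tbx6 16.7 ± 2.70, Fgf8 16.1 ± 1.92, Hes7 33.1 ± 8.52, Rspo3 14.2 ± 1.17 units). They were high in day-4 cells of the same line and low in the day-6 cells of line CK35. Line and day cannot be told apart for Tbx6, Fgf8, Hes7 and Rspo3 either.

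**Figure D5:**
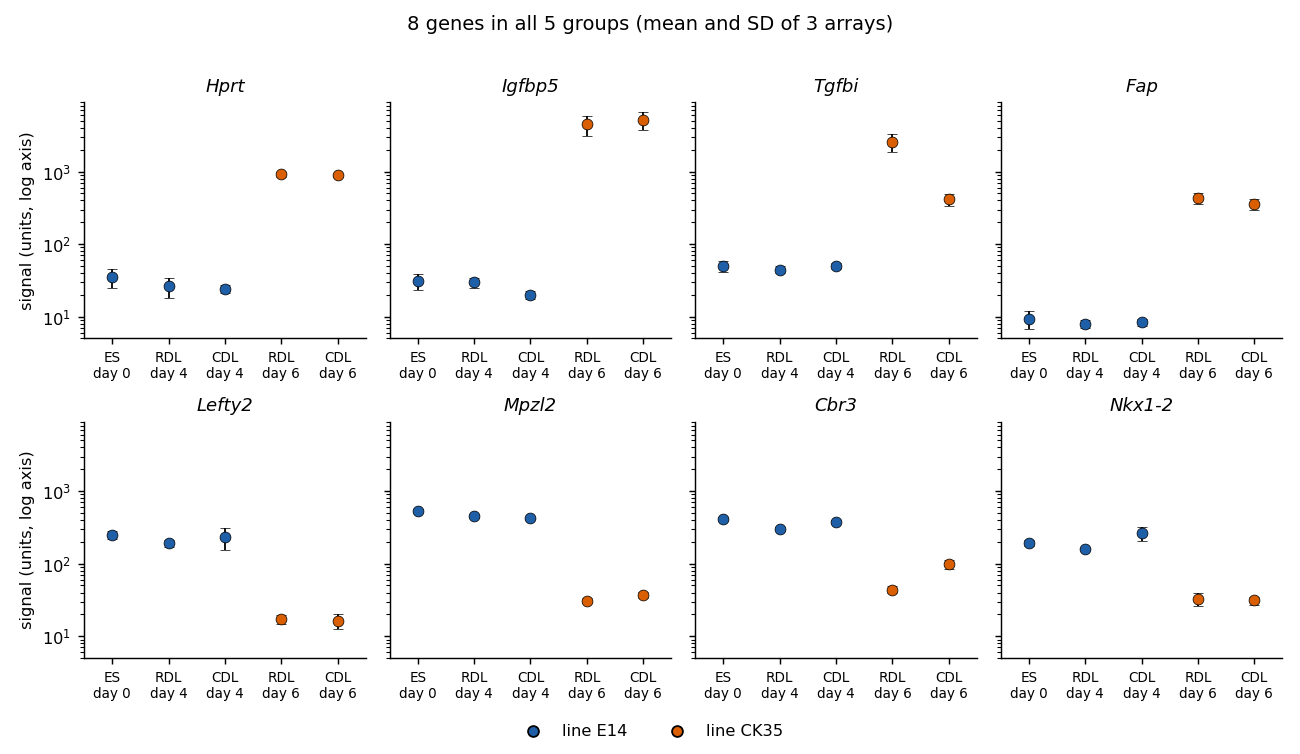
Mean signal (units, log axis) with SD of 8 genes in ES cells at day 0 and in RDL and CDL cells at day 4 (all line E14) and at day 6 (line CK35), 3 arrays each. Hprt, Igfbp5, Tgfbi and Fap are low in all E14 groups and high in both CK35 groups, and Lefty2, Mpzl2, Cbr3 and Nkx1-2 run the other way.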

How the data were processed

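RNA of 15 cell samples was measured on Affymetrix mouse arrays with 45101 probe sets, 64 of them controls. The deposited values are MAS5 signal intensities, per the submitters' processing notes; they are linear, not log2, as their range shows, although they were described for this work as log2. The MAS5 version and genome build are not given in the sources used here. Of the 45037 other probe sets 34945 carried 1 gene symbol, 932 several and 9160 none; those with 1 were used (18193 genes), and the brightest per gene was kept. From the deposited intensities log2(signal + 12.6) was computed, 12.6 being the median over arrays of the 25th percentile, with no further scaling. Genes above the array median on at least 3 arrays were tested (12400), and 5793 were too dim. Group means over all 15 arrays were fitted with limma 3.58.1 (lmFit, eBayes with a trend) in R 4.3.3, and p-values were adjusted by Benjamini-Hochberg over all genes. The steps were tested on simulated data. The day-6 and day-4 RDL arrays share replicate numbers, and the labels do not say what a shared number means. Residuals of same-numbered arrays correlated at 0.285, 0.258 and 0.219, each array best with its own number. A fit with the replicate number as a block was therefore run beside the main fit. The main fit takes no pairs and gave the printed values wherever no other fit is named. Alternatives were other constants, filters, probe set choices and scalings, no variance trend, only the 6 RDL arrays, and leaving out arrays.

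Named genes are the 15 largest called changes each way with no overlap, the 8 largest each way of the difference between media and of the genes that separate the lines, and members of the gene lists. Members and lists were chosen with earlier results of these data known, so their counts are descriptions. The actin and Gapdh ratios come from control probe sets. The labels write LDN with differing numbers, which are not printed.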

Additional observations from a re-analysis of the deposited data

Results flagged for a closer look

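Of the 304 tested genes named above, 89 changed with the day by a different amount in RDL than in CDL (limma's test of the difference, adjusted p under 0.05 over all genes), 43 upwards and 46 downwards. Over all genes 5.39% did, and 16 of the named genes were chosen by this test, so their count is a description. Each value below is the log2 change in RDL minus that in CDL. Without replicate 1 of day 4 in CDL 83 of the 89 still passed, all but Aldoc, Etv4, Fzd8, Irs2, Notch1 and Sall1, and without replicate 1 of day 6 in RDL 87 did, all but Etv4 and Notch1. Single outlying values of a gene were not tested, since each group has 3 arrays.

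Among posterior and streak genes the difference was negative for Dll1 (-2.23), Fgf18 (-2.43) and Pcdh8 (-1.59) and positive for Cyp26a1 (0.86), Cdx4 (0.80), Wnt3a (0.66), Evx1 (0.90), Mixl1 (0.85) and Cdh1 (1.41). Notch pathway genes were all on the negative side: Hey1 (-2.13), Nrarp (-1.69), Notch1 (-1.16), Heyl (-1.05) and Hey2 (-0.86). Wnt genes lay on both, with Tnfrsf19 (-1.89) and Nkd1 (-1.38) negative and Dkk1 (2.54), Fzd5 (2.51), Sfrp1 (1.43), Fzd4 (1.05) and Fzd8 (0.80) positive. FGF genes gave -1.23 for Fgfr2, -0.70 for Fgf9, -0.64 for Etv4 and 1.42 for Fgf5.

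Somite and dermomyotome genes were mostly negative, Tcf15 the lowest of all 89: Tcf15 (-3.46), Uncx (-2.58), Meox1 (-2.58), Efnb2 (-2.58), Dmrt2 (-2.55), Aldh1a2 (-2.40), Foxc2 (-1.99), Ripply2 (-1.81), Pax3 (-1.61), Mesp2 (-1.45), Mesp1 (-1.35), Myf5 (-1.19), Eya1 (-1.05) and Met (-1.02). Ebf2 (1.52) and Epha4 (1.77) were the positive ones. Axial and signalling regulators gave -1.53 for Shh, 0.79 for Hhip, -1.15 for Hoxb1, -1.08 for Hoxd1, -1.39 for Nr2f2, -1.33 for Crabp1, 0.90 for Crabp2 and -1.48 for Ntn1. Muscle structure genes gave 1.001 for Mef2c, 0.95 for Tnnt1 and -0.47 for Tpm1.

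Genes of other lineages were mostly positive, namely Otx2 (3.12), Trh (3.05), Fli1 (3.003), Prrx1 (2.02), Snai2 (2.0), Sox17 (1.57), Krt8 (1.38), Krt18 (0.79), Klf5 (1.35) and Kdr (0.82), with Lmo2 (-1.98), Klf4 (-1.68) and Sall1 (-1.20) negative. Matrix and adhesion genes gave 2.71 for Tgfbi, 2.41 for Epha3, 2.19 for Lum, 1.52 for Col9a1, 0.72 for Lgals3, 0.67 for Col11a1 and 0.61 for Postn. Imprinted and growth factor genes gave 2.75 for Asb4, 1.93 for Dlk1, 1.28 for Igf1, 0.81 for Peg3, -0.76 for Mest, -0.86 for Igf2 and -1.02 for Irs2. Metabolic and other genes gave 1.76 for Egln3, 1.39 for Agmo, 0.70 for Cdc20, 0.56 for Tpi1, -0.63 for Cbr3, -0.74 for Aldoc, -0.89 for Dusp14, -0.81 for Hmga2, -1.79 for Cth and -2.98 for Nupr1.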

How the results depend on the processing

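The 304 genes named above gave 5111 values under the alternatives, of which 5038 kept direction and side of the threshold, 44 lost the call, 29 gained one and none of the called ones changed sign. Counts of genes moved by more than 1.5 times in a few cases. With 4 times the added constant 261 genes, in place of 414, were at least 2-fold lower at day 6; the larger constant shrinks every fold by construction. The count with a higher change in RDL than in CDL, 382, was 222 with the filter at the 75th percentile, which tests fewer genes. Without replicate 1 of day 6 in RDL it was 664, and the count with a lower change, 286, was 552; without that array and replicate 1 of day 4 in CDL they were 676 and 561, and the cause was not tested. Leaving out each array in turn gave 1351 to 1671 genes higher and 1570 to 2139 lower in RDL, of which 334 to 373 and 373 to 464 at least 2-fold, 1695 to 2372 higher and 2063 to 3074 lower in CDL, and 290 to 664 with a higher and 192 to 552 with a lower change in RDL. With the replicate number as a block the counts were 2037 and 2538 in RDL, 2496 and 3127 in CDL, and 530 and 427 for the difference between media, each within 1.5 times of the fit without it. Beside the changes given above, the block changed the call of no other gene named. Fitted on only the 6 RDL arrays, 1393 genes were higher and 1638 lower at day 6. In that fit 5 of the named genes lost the call and 1 gained one. Signals near the array median carry background, which limits dim genes.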
